A study of Mus musculus with 12 samples.

Results

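The genes described here are 10 members of the ETS family of transcription factors, Ehf, Ets1, Fli1, Elf1, Elf2, Elf4, Spi1, Spib, Spic and Etv6, of 18194 genes that the array names. The list was chosen by measured values of these arrays: Ehf was selected on its low level in cells that had lost both Foxo1 alleles, and the other 9 are lymphoid and myeloid ETS factors set beside it. The cells were BL#19, a mouse Burkitt lymphoma line, a tumour of germinal center B cells, in which CRISPR/Cas9 editing removed the wild-type allele of the transcription factor Foxo1, its T24P mutant allele, or both. RNA was measured on 12 Affymetrix arrays, with 3 arrays for each genotype: wt+/mt+ (both alleles present), wt-/mt+ (only T24P present), wt+/mt- (only wild type present) and wt-/mt- (neither present). The BL#19 line was common to all groups. What editing, if any, the wt+/mt+ cells went through is not given by the foxo1 status. No label states if arrays of 1 genotype stem from different edited clones or from 1, or from 1 culture. The p-values therefore reflect how these arrays scatter, and part of that scatter may be technical.

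ETS factors share a winged helix-turn-helix DNA-binding domain that reads a GGAA core, and much of their specificity comes from the neighbouring bases and from partner proteins. Ets1, Fli1, PU.1 (the product of Spi1) and Spi-B (Spib) serve in the development and function of B cells, PU.1 also directs myeloid genes, and Spi-C (Spic) is needed by red pulp macrophages. Ehf belongs with Elf3 and Elf5 to a branch known mainly from epithelia, and Etv6 (TEL) is a repressor.

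The arrays measured RNA and not factor binding, and promoter sequence was at hand from RefSeq (build GRCm38.p6) for 6 of the 10 genes, Elf1, Elf2, Elf4, Spib, Spic and Etv6, in 9 entries that run from 250 bases before to 50 after an annotated start. The promoters of Etv6, whose signal rose most, of Elf1, which fell, and both of Elf2, whose probe sets moved in opposite directions, are printed with each GGAA core, on either strand, in capitals (GGAA or TTCC). Etv6 is at chr6:134035450-134035749 on the plus strand, Elf1 at chr14:79480944-79481243 on the plus strand, and the starts of Elf2 at chr3:51340595-51340894 and chr3:51277465-51277764 on the minus strand.
Etv6: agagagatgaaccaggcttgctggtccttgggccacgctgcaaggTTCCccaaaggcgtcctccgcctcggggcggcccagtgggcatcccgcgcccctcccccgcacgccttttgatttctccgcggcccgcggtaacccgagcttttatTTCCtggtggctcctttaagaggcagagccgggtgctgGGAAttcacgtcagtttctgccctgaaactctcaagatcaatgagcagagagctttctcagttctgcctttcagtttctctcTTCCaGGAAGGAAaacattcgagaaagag
Elf1: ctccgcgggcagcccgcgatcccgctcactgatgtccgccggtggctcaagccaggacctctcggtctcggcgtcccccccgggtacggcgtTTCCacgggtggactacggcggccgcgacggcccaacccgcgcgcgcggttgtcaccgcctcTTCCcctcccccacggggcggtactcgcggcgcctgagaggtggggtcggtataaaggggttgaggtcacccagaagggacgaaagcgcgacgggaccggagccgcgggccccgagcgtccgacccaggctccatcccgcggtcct
Elf2 start 1: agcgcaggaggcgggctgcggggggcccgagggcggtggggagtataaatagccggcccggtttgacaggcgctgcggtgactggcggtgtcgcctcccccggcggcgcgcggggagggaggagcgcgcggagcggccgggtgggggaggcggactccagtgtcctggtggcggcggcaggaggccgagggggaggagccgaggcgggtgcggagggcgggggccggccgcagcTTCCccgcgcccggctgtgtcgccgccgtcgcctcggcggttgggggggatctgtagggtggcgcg
Elf2 start 2: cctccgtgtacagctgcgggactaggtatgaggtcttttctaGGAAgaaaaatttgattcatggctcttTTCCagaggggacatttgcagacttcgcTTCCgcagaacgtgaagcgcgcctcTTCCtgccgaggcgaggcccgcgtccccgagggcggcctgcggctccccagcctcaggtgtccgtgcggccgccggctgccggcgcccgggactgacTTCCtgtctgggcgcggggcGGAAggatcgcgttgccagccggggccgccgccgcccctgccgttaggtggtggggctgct
The core occurred 6 times in the Etv6 window and 2 times in this Elf1 window. In Elf2 it occurred 1 time at the first start and 6 times at the second. These 4 letters lie in 96% of 32851 RefSeq promoter windows of the same length, so their presence does not set these genes apart. The FOXO motif GTAAACA (either strand) lies in 3.65% of all windows and the longer ETS motif CCGGAAG, which holds the core, in 8.86%. Neither was found in the 9 entries. A match describes letters only, and no match says only that they are not in these windows.

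The list was measured by 23 probe sets, of which 17 lay above their array's median in at least 3 arrays, the condition for being tested. By gene, 9 of 10 passed, and Spic did not. Values are log2 RMA levels of the brightest probe set of each gene, for which a step of 1 is a doubling, and levels of different genes are not comparable. A gene was called when limma's p, adjusted by the Benjamini-Hochberg method over all 11458 genes that passed, lay under 0.05. The spread between arrays was not equal. The median SD over genes was 0.0952 in wt+/mt+ and widened to 0.261 in wt-/mt-, with 0.111 for wt-/mt+ and 0.133 for wt+/mt- in between. A second fit that gave each genotype its own array weight is therefore quoted as the weighted fit. Medians of whole chromosomes relative to wt+/mt+ also differed between the wt-/mt- arrays. Chromosome 12 stood at -0.66, 0.03 and -0.04 in wt-/mt- replicates 1, 2 and 3, chromosome 8 at 0.05, 0.19 and -0.27, and chromosome 16 at 0.04, 0.09 and 0.34. The part of these shifts in the spread was not tested. Array medians ran from 6.08 to 6.25. The actin 3' to 5' difference on the log2 scale, a measure of RNA integrity, stood at 2.17 for replicate 1 of wt+/mt- and 1.71 for its replicate 2, with 1.06 to 1.29 in the other 10 arrays. Foxo1 read 11.56, 11.63 and 11.72 in wt+/mt+ and 11.57, 11.16 and 11.64 in wt-/mt+. It read 12.10, 11.92 and 11.59 in wt+/mt- and 10.23, 9.39 and 10.34 in wt-/mt-. Whether its probes lie in the edited stretch was not tested.

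Ehf was high in 3 genotypes and near the bottom of the scale in the fourth. Its brightest probe set, 1451375_at, read 9.05, 9.45 and 9.64 in wt+/mt+ and 9.56, 9.48 and 9.34 in wt-/mt+. It read 7.94, 9.16 and 9.08 in wt+/mt- and 3.91, 3.61 and 4.71 in wt-/mt-. All 9 arrays with an allele left were above their array's median and all wt-/mt- arrays below it, with no overlap. The mean of wt-/mt- was lower by 5.30 ± 0.34 (log2, SE; 39.4-fold) than that of wt+/mt+, 25-fold lower than that of wt+/mt- and 41.7-fold lower than that of wt-/mt+. The wt-/mt- levels lie near 3.09, the lowest value on the arrays, and no detection call was used here, so signal and background cannot be told apart there and the folds are ratios of RMA values only. Since these values chose the gene, they carry no test. In this bulk RNA, fewer cells with Ehf and less Ehf RNA per cell cannot be told apart.

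The other probe sets of Ehf differed in size. Against wt+/mt+, 1419474_a_at was at -4.05 and 1419475_a_at at -2.67 in wt-/mt-. The dim 1447760_x_at, above the median in 1 array, was at -0.56. All 4 were lower, and the mean over the probe sets was -3.15, so the size depends on the probes used.

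**Figure D1:**
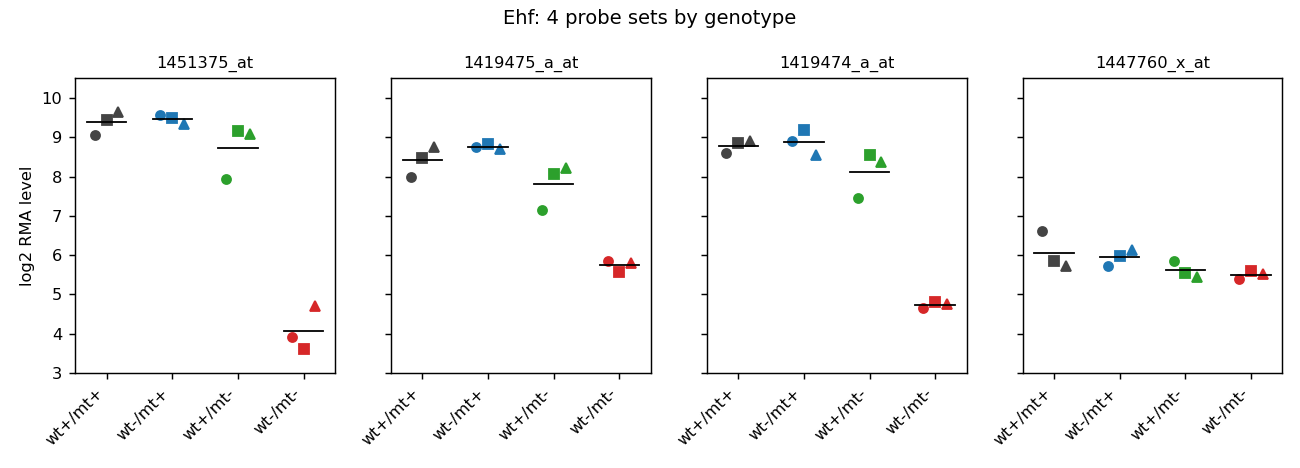
Log2 RMA level of the 4 probe sets of Ehf in each of the 12 arrays, by genotype. Circles, squares and triangles are replicates 1, 2 and 3 and lines are group means. In the brightest set, 1451375_at, the wt-/mt- arrays lie between 3.61 and 4.71 and the other 9 between 7.94 and 9.64.

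Among the 3 genotypes with an allele left, no difference in Ehf was called. Their levels were the high side of the choice of Ehf, and through them it passed the filter. Ehf in wt+/mt- was 0.65 below wt+/mt+ on the log2 scale (change -0.65, adjusted p = 0.413, weighted 0.129), and the arrays of these groups overlapped. The lowest of them, 7.94, was wt+/mt- replicate 1, the array with the highest actin 3' to 5' difference, and its part in the difference was not tested. Leaving out 1 array at a time gave changes from -0.87 to -0.26. Ehf in wt-/mt+ differed from wt+/mt+ by 0.08 (adjusted p = 1.00) and from wt+/mt- by 0.74 (adjusted p = 0.308, weighted 0.103).

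Of the other ETS genes on the list, 8 were tested, and 5 changed between wt-/mt- and wt+/mt+: Etv6 and Elf2 rose while Ets1, Fli1 and Elf1 fell. Across all genes in this comparison, 12.2% were called higher and 9.94% lower, beside 2 and 3 of 8 here. The difference was not tested. The list was chosen with earlier results of these data known, so the counts are no independent evidence. Another probe set of Elf2 and of Elf1 did not share their calls, as given below. The median change of the 8 was -0.00 against 0.05 for all genes. In the weighted fit, where 7.56% of all genes were called in either direction, 1 rose (Etv6) and 3 fell (Ets1, Fli1 and Elf1).

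Ets1, an activator that restrains plasma cell differentiation of B cells, read 14.24, 14.24 and 14.12 in wt+/mt+ and 14.22, 14.27 and 14.28 in wt-/mt+. It read 13.96, 13.99 and 14.00 in wt+/mt- and 13.53, 12.40 and 12.91 in wt-/mt-. The wt-/mt- arrays were below all others and spread more widely than any other genotype. Ets1 fell by 1.25 ± 0.21 on the log2 scale against wt+/mt+ (SE; 2.38-fold, adjusted p = 0.00301, weighted 0.00236). It fell by 1.03 against wt+/mt- (adjusted p = 0.0108, weighted 0.014). Against wt-/mt+ it fell by 1.31 (adjusted p = 0.00218). The 4 probe sets of Ets1 moved together, by -1.39 to -1.23 against wt+/mt+. Without wt+/mt- replicates 1 and 2, the arrays with the high actin difference, 1 array of that genotype was left, and the change against wt+/mt- was -1.05 with an adjusted p of 0.232.

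Fli1, the neighbour of Ets1 on chromosome 9 and known in B cells and megakaryocytes, read 11.12, 10.94 and 10.79 in wt+/mt+ and 11.07, 11.10 and 10.90 in wt-/mt+. It read 10.12, 10.18 and 10.43 in wt+/mt- and 9.94, 8.92 and 9.22 in wt-/mt-. The groups formed steps: the genotypes with T24P were highest, wt+/mt- was below them, and wt-/mt- was lowest, without overlap between the steps. Against wt+/mt+, Fli1 in wt-/mt- fell by 1.59 ± 0.22 (3.01-fold, adjusted p = 9.50e-04, weighted 0.00216). Against wt-/mt+ it fell by 1.66 (adjusted p = 6.35e-04). Its second probe set, 1422024_at, changed by -1.34 in wt-/mt- against wt+/mt+. The step from wt+/mt- to wt-/mt- was a fall of 0.88 (adjusted p = 0.0222) that was not called in the weighted fit (0.0781) or without any 1 of the wt+/mt- arrays (0.0557, 0.0643 and 0.0594).

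Elf1, which binds promoters of lymphoid genes, read 11.57, 11.57 and 11.61 in wt+/mt+ and 11.61, 11.69 and 11.61 in wt-/mt+. It read 11.09, 11.15 and 11.26 in wt+/mt- and 11.24, 10.57 and 10.98 in wt-/mt-. Both genotypes without T24P lay below both with it, and these 2 lower groups overlapped. Elf1 fell by 0.66 ± 0.14 in wt-/mt- against wt+/mt+ (1.58-fold, adjusted p = 0.00962, weighted 0.0216) and by 0.71 against wt-/mt+ (adjusted p = 0.00679). The change against wt+/mt- was -0.24 (adjusted p = 0.300), and -0.39 without wt-/mt- replicate 1 (0.0458). A second probe set of Elf1, 1439319_at, changed by 0.18 against wt+/mt+ (adjusted p = 0.605), so the fall rests on 1417540_at. With the mean of both sets it was -0.24 (adjusted p = 0.339).

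**Figure D2:**
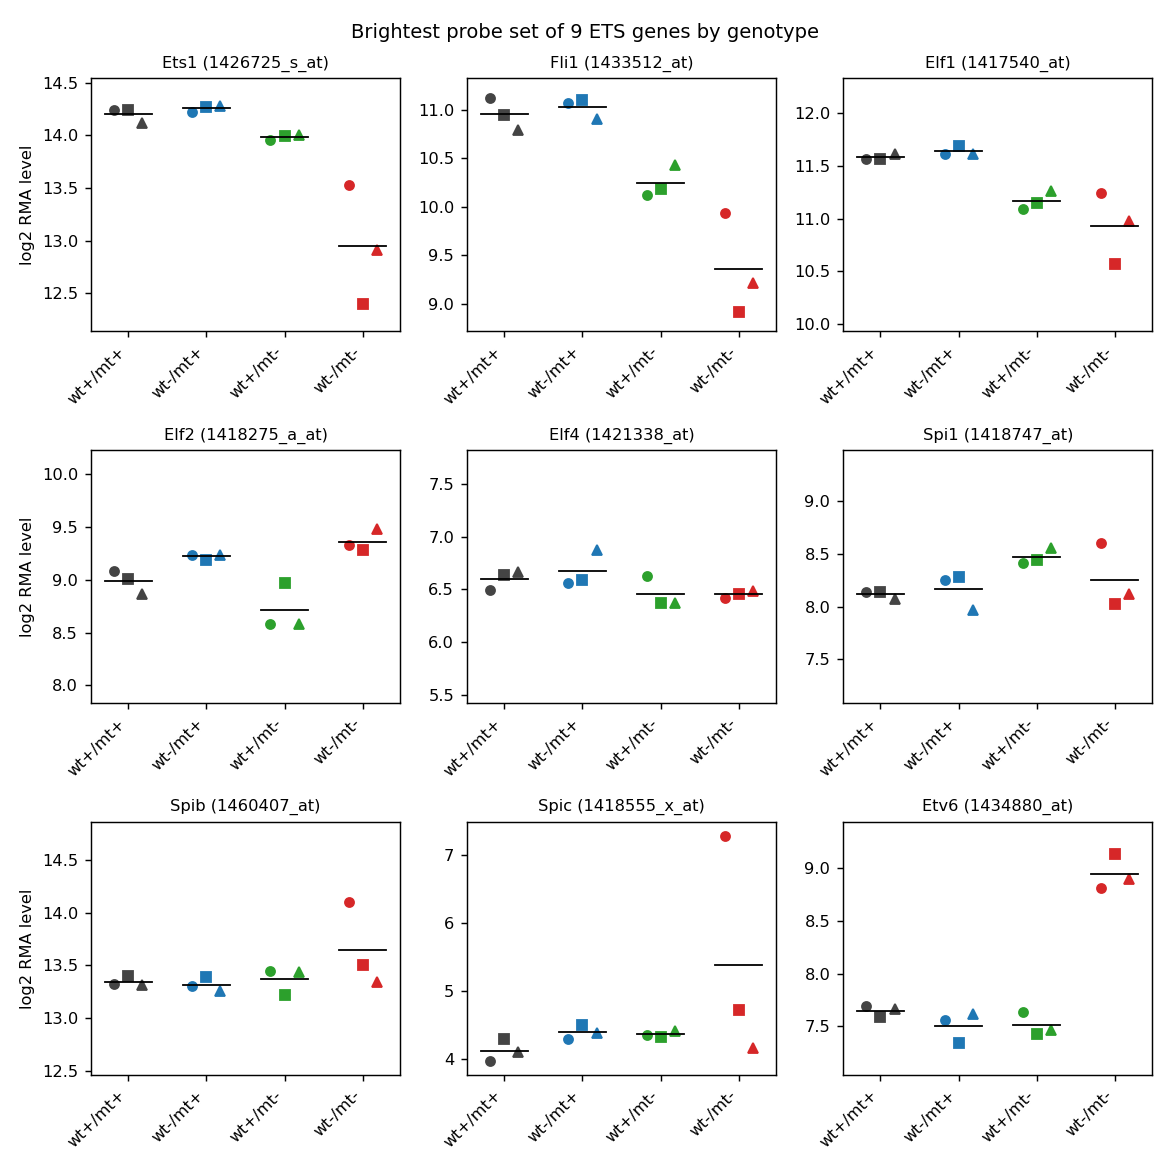
Log2 RMA level of the brightest probe set of the 9 listed ETS genes other than Ehf in each array, by genotype. Circles, squares and triangles are replicates 1, 2 and 3, lines are group means, and each panel has its own axis range. Ets1 and Fli1 are lowest and Etv6 highest in wt-/mt-, and 1 wt-/mt- array of Spic reads 7.29.

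Etv6, the repressor, moved the other way. It read 7.69, 7.59 and 7.67 in wt+/mt+ and 7.56, 7.34 and 7.62 in wt-/mt+. It read 7.64, 7.43 and 7.47 in wt+/mt- and 8.81, 9.14 and 8.90 in wt-/mt-. The first 3 genotypes overlapped, and every wt-/mt- array was more than 1 above every other array. Etv6 rose by 1.30 ± 0.12 against wt+/mt+ (2.46-fold, adjusted p = 7.63e-05, weighted 9.22e-04). It rose by 1.44 against wt+/mt- (adjusted p = 8.63e-05, weighted 0.00127) and by 1.44 against wt-/mt+ (adjusted p = 3.39e-05). Its dim second probe set, 1423401_at, above the median in 2 arrays and not tested, was at 0.90 in the first of these comparisons. The Etv6 promoter printed above lies on chromosome 6, on which the median gene of wt-/mt- replicates 1, 2 and 3 was 0.06, 0.33 and 0.22 above wt+/mt+. Centring each array per chromosome, an alternative added after the data were seen, kept each of the 3 Etv6 calls.

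Elf2, an Elf1 relative with several protein forms, gave opposite answers from its 2 bright probe sets. 1418275_a_at read 9.08, 9.01 and 8.87 in wt+/mt+ and 9.24, 9.19 and 9.24 in wt-/mt+. It read 8.58, 8.97 and 8.58 in wt+/mt- and 9.33, 9.28 and 9.48 in wt-/mt-. 1428045_a_at read 8.15, 8.01 and 7.94, then 7.82, 7.71 and 7.36, then 7.47, 8.37 and 8.80, then 7.27, 6.92 and 7.10 in the same order. The first was highest and the second lowest in wt-/mt-, and in neither did the wt-/mt- arrays overlap those of wt+/mt+.

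In the fit of all 20302 probe sets, 1418275_a_at rose by 0.38 (adjusted p = 0.0489) and 1428045_a_at fell by 0.94 (adjusted p = 0.0307) against wt+/mt+. Against wt+/mt- the first rose (adjusted p = 0.0073) and the second fell by 1.12 (adjusted p = 0.021). Of all probe sets, 21.7% were called in the first of these comparisons, 13.5% in the second and 19.9% against wt-/mt+. In the fit by gene, which uses 1418275_a_at, Elf2 rose by 0.38 ± 0.12 against wt+/mt+ (adjusted p = 0.0448, weighted 0.215) and by 0.65 against wt+/mt- (adjusted p = 0.00653, weighted 0.0869). The first call was lost in 8 of the 12 fits that left out 1 array. Which of the annotated Elf2 starts printed above feeds which probe set was not tested.

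**Figure D3:**
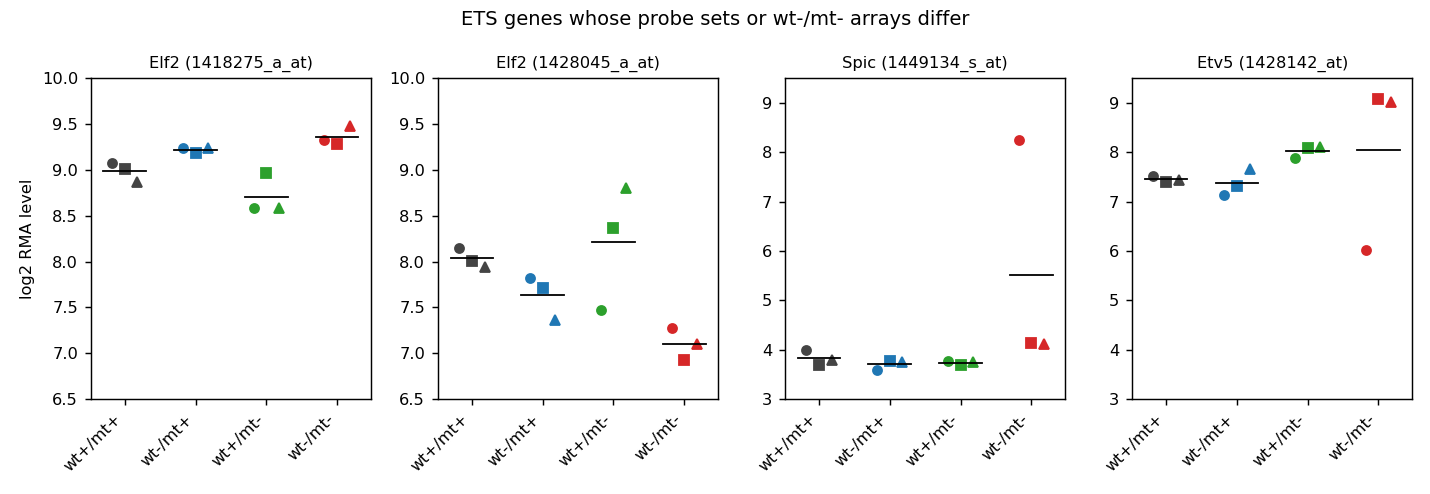
Log2 RMA levels by array for both bright probe sets of Elf2, for the Spic probe set 1449134_s_at and for Etv5. Circles, squares and triangles are replicates 1, 2 and 3, lines are group means, and the first pair and the last pair of panels each share an axis range. Elf2 is highest by one set and lowest by the other in wt-/mt-, while wt-/mt- replicate 1 stands apart in Spic (8.26) and in Etv5 (6.03).

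The PU.1 subfamily showed no called change. Spi1 read 8.14, 8.14 and 8.07 in wt+/mt+ and 8.25, 8.28 and 7.97 in wt-/mt+. It read 8.41, 8.44 and 8.56 in wt+/mt- and 8.60, 8.03 and 8.12 in wt-/mt-. Its wt-/mt- arrays overlapped every other genotype, with a change of 0.13 ± 0.15 against wt+/mt+ (adjusted p = 0.527). Spi1 in wt+/mt- was 0.35 above wt+/mt+ without overlap (adjusted p = 0.286, weighted 0.0521). Without wt-/mt- replicate 1, Spi1 in wt-/mt- fell by 0.39 against wt+/mt- (adjusted p = 0.0353).

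Spib read 13.32, 13.40 and 13.31 in wt+/mt+ and 13.30, 13.39 and 13.26 in wt-/mt+. It read 13.45, 13.22 and 13.44 in wt+/mt- and 14.10, 13.50 and 13.34 in wt-/mt-. In wt-/mt-, replicates 1 and 2 were above every other array and replicate 3 was among them, and the change was 0.30 ± 0.17 against wt+/mt+ (adjusted p = 0.200). Without wt-/mt- replicate 3, Spib rose by 0.48 against wt-/mt+ (adjusted p = 0.0466). Elf4, a factor of lymphoid and natural killer cells, lay between 6.37 and 6.87 in all arrays and changed by -0.14 ± 0.11 in wt-/mt- against wt+/mt+ (adjusted p = 0.397).

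Spic was low in all arrays but 1. Its probe set 1449134_s_at read 3.99, 3.68 and 3.79 in wt+/mt+ and 3.58, 3.77 and 3.75 in wt-/mt+. It read 3.77, 3.69 and 3.75 in wt+/mt- and 8.26, 4.13 and 4.12 in wt-/mt-. The second set, 1418555_x_at, read 7.29 in wt-/mt- replicate 1 and 3.97 to 4.73 elsewhere. The high signal thus came from 1 array in both probe sets, and Spic was not tested. Of 2 Spi-C target genes of red pulp macrophages that passed the filter, Hmox1, the heme oxygenase, was called higher in wt-/mt- against wt+/mt- and against wt-/mt+ and in neither with weights. This 1 of 2 genes stands beside 6.35% and 9.75% of all genes called higher in these comparisons.

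Single-allele cells served as the reference next. Between wt-/mt- and wt+/mt-, the loss of the wild-type allele where T24P was absent, 2 of 8 rose (Elf2 and Etv6) and 2 fell (Ets1 and Fli1). The background was 6.35% called higher and 8.22% called lower, or 3.48% with weights, when 1 rose (Etv6) and 1 fell (Ets1). Between wt-/mt- and wt-/mt+, the loss of T24P where the wild-type allele was absent, 1 rose (Etv6) and 3 fell (Ets1, Fli1 and Elf1), over a background of 9.75% higher and 11.1% lower. The weighted fit, at 8.06%, gave the same counts. All these comparisons share the wt-/mt- arrays and are not independent of each other.

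**Figure D4:**
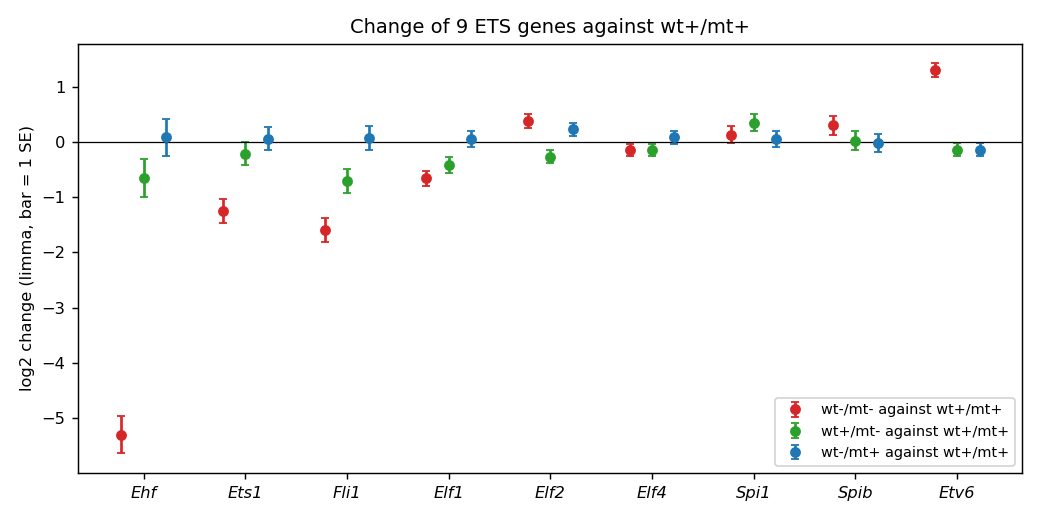
Log2 change against wt+/mt+ of the 9 listed ETS genes that passed the filter, for wt-/mt-, wt+/mt- and wt-/mt+. Points are limma estimates and bars are 1 SE. Ehf in wt-/mt- is at -5.30 and was chosen for this value, Ets1, Fli1 and Elf1 lie between -1.59 and -0.66, and Etv6 is at 1.30.

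With 1 allele still present, no listed gene was called in the unweighted fit. In wt+/mt- against wt+/mt+, limma called 0 of the 9, over a background of 0.183% of all genes (1704 genes at an unadjusted p under 0.05). In the weighted fit, which called 8.29% of all genes, Fli1 (change -0.71, adjusted p = 0.013) and Elf1 (change -0.42, adjusted p = 0.0168) fell. Without weights these had adjusted p = 0.156 and 0.189, and Fli1 reached 0.0425 without wt-/mt- replicate 1. Ets1 was at -0.21 without overlap (adjusted p = 0.735, weighted 0.222). The Fli1 and Elf1 arrays of wt+/mt- did not overlap those of wt+/mt+. The actin difference was high in replicates 1 and 2 of wt+/mt-, and its part in these changes was not tested.

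In wt-/mt+ against wt+/mt+, limma called 0 of the 9 and 0% of all genes (412 genes at an unadjusted p under 0.05). With weights it called 0 of the 9 and 0.166% of all genes, with 1672 genes at an unadjusted p under 0.05. The listed genes changed by -0.14 (Etv6) to 0.23 (Elf2). In wt-/mt+ against wt+/mt-, cells with just T24P against cells with just the wild-type allele, limma called 0 of the 9 over a background of 0.0873% (1881 genes at an unadjusted p under 0.05). With weights, where 7.29% were called, 3 were higher in wt-/mt+: Fli1 (0.78, adjusted p = 0.0126), Elf1 (0.47, adjusted p = 0.0149) and Elf2 (0.51, adjusted p = 0.0209).

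Whether the loss of T24P acted differently with and without the wild-type allele was tested by the interaction of both losses, called for 3.14% of all genes. Of the 8 genes only Etv6 was called, with a difference of 1.58 ± 0.16 (adjusted p = 0.00172, weighted 0.00152). In the weighted fit, also at 3.14%, Ets1 joined it at -1.09 (adjusted p = 0.0197, unweighted 0.08). Ets1 was called without wt-/mt- replicate 1 (adjusted p = 0.00228) or replicate 2 (0.0352), and Fli1 without replicate 1 (0.005). Ehf was at -4.73, which its choice fixed and which carries no test.

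Of 16 further ETS genes, 14 had a probe set of their own and 10 passed the filter. Against wt+/mt+, 1 rose and 1 fell in wt-/mt-, near the background of 12.2% higher and 9.94% lower, so these counts are no result about the further genes as a group. Elk3, a ternary complex factor, read 8.94, 9.79 and 9.99 in wt-/mt- and 10.27 to 10.89 elsewhere, without overlap. It fell by 1.08 ± 0.23 (adjusted p = 0.009, weighted 0.0197), and by 1.19 against wt-/mt+ (adjusted p = 0.00574). Against wt+/mt- it fell by 0.86 (adjusted p = 0.0322, weighted 0.0915), a call lost in 5 of the 12 fits that left out 1 array. Etv2, an endothelial and hematopoietic regulator near its array medians, was the 1 that rose, by 0.60. It was above the median in 6 arrays, those of wt+/mt- and wt-/mt-. It thus passed the filter through groups where it is high, and it is given as a description with no p. Its call was lost in 4 of the 12 fits that left out 1 array. Without wt+/mt+ replicate 1 the change was 0.39.

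Etv5 of the PEA3 subfamily read 6.03, 9.09 and 9.02 in wt-/mt- and 7.14 to 8.11 elsewhere, so that replicate 1 was below and the other two were above every other array. Its change of 0.60 was not called (adjusted p = 0.509). Without wt-/mt- replicate 1 it rose by 1.61 (adjusted p = 8.39e-05). This gene was named after its values were seen. Elf5, an epithelial ETS gene near Ehf on the chromosome, averaged 5.17 in wt+/mt+ and 4.95 in wt-/mt- and was above the median in no array. Elf3 was above the median in all 12 arrays and read 7.20, 8.24 and 7.21 in wt-/mt- and 7.05 to 7.28 elsewhere. Its limma change of 0.43 against wt+/mt+ was not called (adjusted p = 0.183). With each array centred per chromosome, it was called at 0.64 (adjusted p = 0.035).

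Of the 6 nearest measured genes on each side of Ehf, 8 of 12 passed the filter, and 1 was called lower and 0 higher in wt-/mt- against wt+/mt+, near the 9.94% of all genes called lower. This was Abtb2, which fell by 0.87 (adjusted p = 0.0236, weighted 0.135). Apip, next to Ehf on one side, averaged 9.56 in wt+/mt+ and 9.67 in wt-/mt-, and Cat, the catalase gene on the other side, 13.02 and 12.94. The median gene of chromosome 2 in wt-/mt- replicates 1, 2 and 3 was 0.08, 0.05 and 0.05 above wt+/mt+.

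Fli1 and Ets1 lie side by side. Of the 3 outer neighbours on each side, 2 of 6 passed. Kcnj1, a potassium channel gene next to Fli1, fell by 1.27 ± 0.19, from 7.11 ± 0.34 (SD, n = 3) to 5.83 ± 0.05. It was above the median in 8 arrays and below it in wt-/mt-. It thus passed the filter through groups where it is high, and its change is a description with no p. Kirrel3, beyond Ets1, was at -0.00 (adjusted p = 1.00). Chromosome 9 as a whole was 0.07, 0.11 and 0.04 above wt+/mt+ in the wt-/mt- arrays, beside a median change of 0.05 over all genes. A median of a whole chromosome does not describe a short stretch of it.

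**Figure D5:**
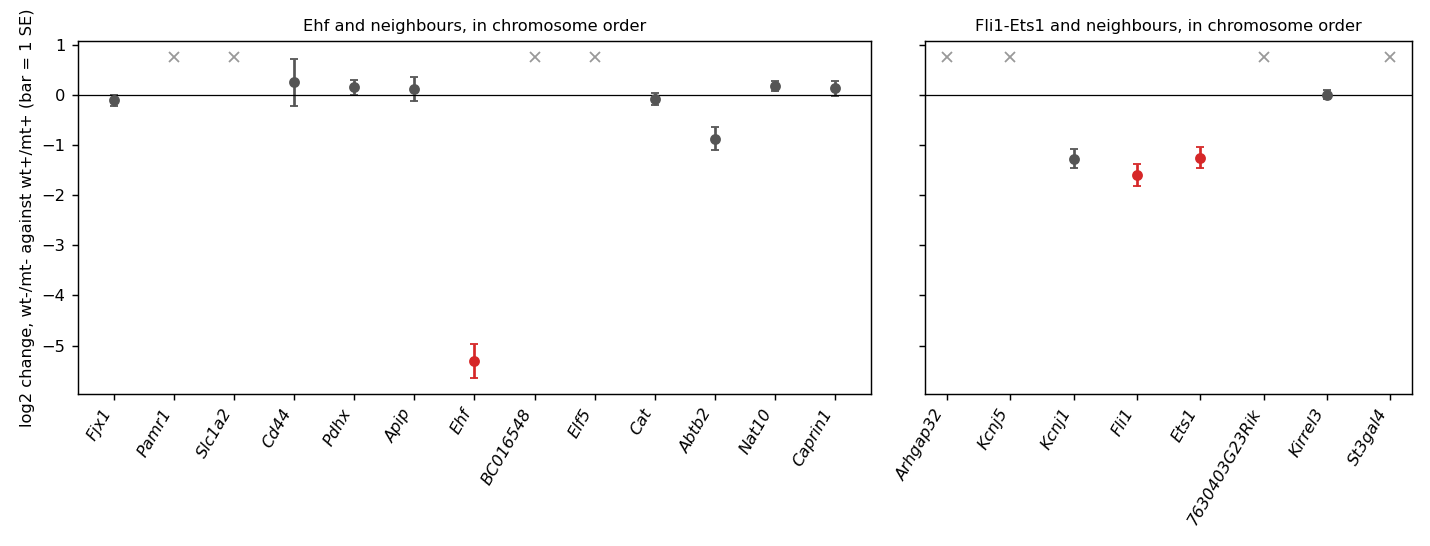
Log2 change in wt-/mt- against wt+/mt+ of Ehf and its 6 nearest measured genes on each side, and of Fli1, Ets1 and the 3 nearest outer genes on each side, in chromosome order with no distances to scale. Points are limma estimates with bars of 1 SE, the ETS genes are red, and crosses near the top mark genes that did not pass the filter and have no value. Ehf, at -5.30, stands beside neighbours of which Abtb2 (-0.87) is the lowest, and Kcnj1 (-1.27) lies with Fli1 and Ets1.

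Genes known as targets of these factors, on lists written for this description, were read next. Of 14 tested B cell targets of PU.1 and Spi-B, 1 rose and 5 fell in wt-/mt- against wt+/mt+, with a median of -0.31 against 0.05 for all genes. The shares over all genes were 12.2% higher and 9.94% lower. Weighted, 0 rose and 4 fell, over 7.56% of all genes called in either direction. Those that fell were Syk (change -1.52), the kinase of the B cell receptor, Cd72 (-1.08), Cd79b (-0.96), Cd22 (-0.84) and Fcgr2b (-0.80), and P2ry10 rose by 1.31. Syk read 9.28, 8.70 and 7.66 in wt-/mt- and 8.65 to 10.23 elsewhere, so it overlapped other genotypes, whereas Cd72 read 11.43, 11.56 and 11.17 against 12.24 to 12.72 elsewhere. Against wt+/mt-, 2 of 14 fell, Cd22 and Cd72, over 8.22% of all genes called lower. Over the same arrays the summed level of 6 B cell markers, 4 of them also on the target list, was 40629 to 55552 in wt-/mt- and 57735 to 67067 elsewhere, and its part in these changes was not tested. The summed level of 5 germinal center B cell markers was 7037 to 14928 in wt-/mt- and 14040 to 17607 elsewhere, and that of 5 plasma cell markers 12121 to 20020 in wt-/mt- and 15985 to 36859 elsewhere. The plasma cell sum is mostly Jchain (mean 14.33 in wt+/mt+, 13.22 in wt-/mt-) and Xbp1 (13.45 and 12.12). Irf4 (9.08 and 9.66), Sdc1 (7.70 and 7.81) and Prdm1 (4.77 and 4.95) went the other way, so the sum does not describe each marker. The germinal center sum is mostly Bcl6 (mean 13.36 in wt+/mt+, 12.67 in wt-/mt-), and the B cell sum mostly Ms4a1, Cd79b and Cd22. Fas (9.88), Cd79a (8.87) and Pax5 (7.88) in wt-/mt- replicate 1 were above every array of the other genotypes. Their wt-/mt- replicates 2 and 3 were lower, so these sums do not describe each marker either. The part of the germinal center and plasma cell sums in the changes of the ETS genes and these targets was not tested either. Summed levels of T cell markers were 438 to 461 in wt-/mt- and 392 to 457 elsewhere, of NK cell markers 126 to 618 and 144 to 620, of stromal and endothelial markers 306 to 353 and 247 to 318, and of erythroid markers 96 to 114 and 99 to 119. Above the median in no array were 3 of 6 T cell, 2 of 3 NK cell, 3 of 6 stromal and endothelial and 3 of 3 erythroid markers. The NK cell sum varied mainly with Klrd1 (5.73 to 9.11).

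Myeloid targets of PU.1 rose in part while Spi1 itself was not called. Of 16, 10 passed the filter, and limma called 4 higher and 0 lower against wt+/mt+, where 12.2% of all genes were called higher and 9.94% lower and 4381 had an unadjusted p under 0.05. They were Mpeg1 (3.76, adjusted p = 0.00306), the perforin-2 gene, Ncf4 (2.66, adjusted p = 0.00413) of the phagocyte NADPH oxidase, Cybb (3.66) of the same oxidase and Cd68 (1.93, not called in the weighted fit). Earlier results on these arrays were known when the list was made, so its direction is no independent evidence. Cybb read 8.61, 8.99 and 9.91 in wt-/mt- and 5.40 to 6.75 elsewhere. It was above the median in 4 arrays, the 3 of wt-/mt- among them, so it passed the filter through the group where it is high, and it is given as a description with no p. Cd68 was above the median in 8 arrays, those of wt-/mt- and wt+/mt- among them, and below it in wt-/mt+. Cd68 thus passed partly through groups where it is high, and it too is given with no p. The count of 4 therefore supports nothing about the list. Of 9 myeloid cell markers, 7 of them also on the target list, 5 were above the median in no array (Itgam, Cd14, Lyz2, S100a8 and Mpo), and their summed level was 606 to 707 in wt-/mt- and 545 to 676 elsewhere.

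Of 11 tested partners and antagonists of ETS factors, 0 rose and 2 fell against wt+/mt+, near the 9.94% of all genes called lower. Runx1, a partner of Ets1 on DNA, fell by 0.89 (adjusted p = 0.00927, weighted 0.0591), and Ebf1, a B cell identity factor, by 0.71 (adjusted p = 0.00998, weighted 0.0759). In the weighted fit limma called 0 of the 11 and 7.56% of all genes, with 2926 of all genes at an unadjusted p under 0.05.

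Since Ehf is known from epithelia, 14 epithelial markers were read in these lymphoma cells. Of these, 9 were above the median in no array, Cdh1 and the keratins Krt7, Krt8, Krt18 and Krt19 among them. Their summed level was 1018 to 1178 in wt-/mt- and 1107 to 1312 elsewhere. Of the 5 tested, 1 rose and 1 fell, beside 12.2% of all genes called higher and 9.94% lower. Esrp2, an epithelial splicing factor, fell by 1.12 (adjusted p = 0.00172, weighted 0.00277), and St14, a membrane protease, rose by 0.79 (adjusted p = 0.00971, weighted 0.0864). Esrp2 read 8.33 to 8.43 in wt+/mt+ and 8.54 to 8.74 in wt-/mt+. It read 7.76 to 7.87 in wt+/mt- and 6.98 to 7.73 in wt-/mt-, with no overlap between the groups.

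Genes whose levels ran most like Ehf over the 12 arrays were Ctdsp2 (Pearson's r 0.991), Tmem184b (0.989), Atg4a (0.986), Syne1 (0.985), Zfyve28 (0.979), Ppp3cc (0.977), Rmdn2 (0.974), Arpc5l (0.974), Plekho1 (0.973) and Ero1b (0.972). These values describe the gap between wt-/mt- and the rest, which all 12 arrays share. Over the 9 arrays with an allele left the closest were Zfyve19 (0.979), Jchain (0.966), Ndufa3 (0.961), 9130401M01Rik (0.957) and Akna (0.946), and no gene was on both lists. Among these 9, Ehf stood lowest in wt+/mt- replicate 1 (7.94 against 9.05 to 9.64), the array with the actin difference of 2.17. Jchain was lowest there too (12.80 against 14.10 to 14.60). The part of this array in the r values over 9 arrays was not tested. Ehf with Ets1 gave 0.907 over 12 arrays and 0.624 over 9, and Ehf with Etv6 gave -0.97 over 12 and -0.201 over 9.

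Fli1 and Elf1 ran together within both sets of arrays, with an r of 0.959 over 12 and 0.959 over 9, and Fli1 was second among all genes in likeness to Elf1, after Rnf121 (0.963). Ets1 and Fli1 gave 0.951 and 0.945. The closest genes to Ets1 were Mtf2 (0.989), Prkce (0.984) and Eme2 (0.975), and those to Fli1 were Mtss1 (0.987), Mier1 (0.983) and Ddx5 (0.978). Etv6 was closest to Morf4l2 (0.971), Lclat1 (0.969) and Skp1 (0.968). For Elf2 the closest were Snrpf (0.891), H2ac19 (0.853) and Prdm6 (0.852). These are descriptions over arrays that share their genotypes and their depth of signal.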

How the data were processed

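Total RNA of 12 samples was measured on Affymetrix arrays. The deposited files hold log2 expression levels of probe sets. Per the submitters' processing notes, the authors used RMA, whose version is not given in the sources used here. RMA normalizes across arrays, so a shift shared by most genes is largely removed. Log base 2 was taken from RMA's usual output and the range of the values, 3.09 to 15.57.

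Of 45101 probe sets, 34958 were named for 1 gene through GEO's platform annotation, 932 for several (not used) and 9211 were not named. A gene was read through its brightest probe set and kept when this lay above the array median in at least 3 arrays. Tests used limma 3.58.1 (R 4.3.3), with 1 mean per genotype over all 12 arrays, and the method was tested on simulated data. The fit pools the spread of the 4 genotypes, which was widest in wt-/mt-, so a second fit with 1 array weight per genotype stands beside it. Errors are limma's SE unless SD is named.

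The genes and lists were chosen with earlier results of these data known. Named were the 10 genes, Foxo1, other ETS genes called in any comparison, up to 4 called genes of each further list by size (all 6 of the B cell targets), the genes most like each member and the chromosomal neighbours. Elf3 was also named, as a relative of Ehf, after its values were seen. Array numbers run through all genotypes, so nothing pairs the arrays. Alternatives were other scalings, filters, probe set rules, pairs of genotypes and leaving out arrays.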

Additional observations from a re-analysis of the deposited data

Results flagged for a closer look

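The change on losing T24P differed, by limma's interaction term over all genes, between cells without and with the wild-type allele for 3 of the genes named. This term was called for 3.14% of all genes, and the share among the genes named was not counted. Etv6 differed by 1.58 (adjusted p = 0.00172), Ncf4 by 3.13 (adjusted p = 0.0355) and Cd72 by -1.0 (adjusted p = 0.0216). In each gene all 3 wt-/mt- arrays lay outside the range of the other 9. The genes were picked by their call in this contrast, so this separation adds no support. The share of all genes with such a separation was not counted. Cybb, at 3.05, was also past the threshold, but it was kept for testing mainly through the wt-/mt- arrays, so this value is a description.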

How the results depend on the processing

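With 3 arrays per genotype and the widest spread in wt-/mt-, small changes of these genes could not be told from array spread. The counts of the 8 listed genes called depended on the fit. With 1 array weight per genotype they were 2 against wt+/mt- in place of 4, 2 (in place of 0) in wt+/mt- against wt+/mt+, 3 (in place of 0) in wt-/mt+ against wt+/mt- and 2 (in place of 1) in the interaction. Fits of only the 2 genotypes compared gave 3 of 5 for wt-/mt- against wt+/mt+, 1 of 4 against wt+/mt-, 2 of 4 against wt-/mt+, 2 in wt+/mt- against wt+/mt+ and 2 in wt-/mt+ against wt+/mt-. The mean of all probe sets gave 3 against wt+/mt+ and 2 in the interaction, every probe set 2 in the interaction, and leaving out wt+/mt- replicates 1 and 2 gave 2 against wt+/mt-. Leaving out 1 array gave 0 to 1 in wt+/mt- against wt+/mt+, 0 to 1 in wt-/mt+ against wt+/mt- and 1 to 3 in the interaction, and the departures came without wt-/mt- replicate 1 (1, 1 and 3) and replicate 2 (2 in the interaction). The sign of Elf2 reversed with the mean of its probe sets, to -0.12 against wt+/mt+ and -0.09 against wt+/mt-, since its sets moved in opposite directions. Ehf with the mean of its probe sets was -3.15 against wt+/mt+. Centring arrays on the median gave 880 genes higher and 1475 lower in wt-/mt- against wt+/mt+ in place of 1396 and 1139. All genes called there numbered 866 with weights in place of 2535, and 813 with only these 2 genotypes fitted. Against wt+/mt- they were 399 and 115 in place of 1670, against wt-/mt+ 923 and 519 in place of 2386, in wt+/mt- against wt+/mt+ 950 and 574 in place of 21, in wt-/mt+ against wt+/mt+ 19 and 53 in place of 0, and in wt-/mt+ against wt+/mt- 835 and 393 in place of 10. Leaving out 1 array moved all genes called to 1254 to 3138 in wt-/mt- against wt+/mt+, 664 to 2536 against wt+/mt-, 1118 to 2987 against wt-/mt+, 0 to 151 in wt+/mt- against wt+/mt+, 0 to 1 in wt-/mt+ against wt+/mt+, 0 to 232 in wt-/mt+ against wt+/mt- and 118 to 994 in the interaction (360 with all arrays), so the background shares move with them. The highest and lowest interaction counts came without wt-/mt- replicate 2 and wt+/mt+ replicate 3. Etv6 kept its direction and call in wt-/mt- against each other genotype and in the interaction under every alternative run. No paired analysis was possible because the genotypes share no replicate number in the labels.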
